A study of Homo sapiens with 14 samples.

Results

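K562 cells that carried an sgRNA against HS2 (sgHS2) were compared with unmodified K562 cells (WT). The comparison used 3 sgHS2 and 2 WT libraries, chosen by their labels, of the 14 RNA-seq libraries in the study. K562 is a human chronic myeloid leukemia line with the BCR-ABL fusion and erythroid and megakaryocytic features. The sgHS2 cells stably carried the sgRNA, the biotin ligase BirA and dCas9, a Cas9 without nuclease activity that bore a Flag tag and a biotin acceptor site; WT cells had none of these. The study also included cells with the same dCas9 and BirA and a non-targeting sgRNA (sgGal4, n = 3), an sgRNA to the fetal globin genes (sgHBG, n = 3) or sgRNAs to multiple locus control region elements (sgHS1-5, n = 3). All cells grew in the same medium with serum. The labels give no clone, pool or passage for any population, so an effect of the sgRNA, of dCas9 and BirA, or of the history of a population cannot be told apart in sgHS2 against WT. They also do not say that replicates were separate cultures, so the p-values reflect only how far these libraries spread, which may be technical.

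HS2 is an enhancer in the locus control region, a group of regulatory elements upstream of the β-like globin genes on human chromosome 11. It contacts the globin promoters and raises their transcription in erythroid cells. The genes of the cluster lie in the order of their use in development: HBE1 in the embryo, HBG2 and HBG1 in the fetus, and HBD and HBB in the adult. K562 cells are known for making embryonic and fetal but little adult globin. dCas9 with a biotin tag serves to capture a locus and what is bound to it, and an RNA-seq comparison shows which transcripts differ in cells that carry the tool.

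The sgHS2 libraries held 11285274, 9765587 and 10622959 counted reads and the WT libraries 10176582 and 10733710. Levels are given as TMM-scaled CPM (counts relative to the size of each library), listed in replicate order, and log2 differences come from the fit, each with its standard error. A gene was called at a Benjamini-Hochberg adjusted p under 0.05 in edgeR's quasi-likelihood test. Defining markers of the line were present in all 5 libraries. GATA1, a defining erythroid factor, had 172, 219 and 167 CPM in sgHS2, against 213 and 215 CPM in WT, and PTPRC, the leukocyte antigen CD45, had 158, 116 and 158 CPM in sgHS2, against 173 and 159 CPM in WT. Library sgHS2 2 stood apart: the χ² per degree of freedom, near 1 when counting error alone separates libraries, was 17.3 and 16.6 against sgHS2 1 and 3, but 1.76 between these 2 and 1.67 between the WT libraries. Relative to the sgHS2 mean, the shortest 20% of transcripts (length from the ratio of counts to RPKM) had a median log2 deviation of 0.18 in sgHS2 2 and the longest 20% one of -0.17. Among the other libraries, sgGal4 1 (90.1 and 93.9 against sgGal4 2 and 3) and sgHS1-5 2 (18.4 and 11.9 against sgHS1-5 1 and 3) also stood apart by this measure, and sgHS1-5 3 was left out beside them in an alternative.

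Many genes differed between sgHS2 and WT. Of 14406 genes tested, 4769 were called (33.1%), 2535 higher (17.6%) and 2234 lower (15.5%) in sgHS2, with a median log2 difference over all genes of 0.027. Of the called genes, 1276 were at least 2-fold higher and 925 at least 2-fold lower. The groups did not overlap for 9578 genes (66.5%). The count depended on the libraries: it was 2794 without WT 1 and 2813 without WT 2, where the lone WT library is assumed to vary like the other groups. It was 9540 of 14339 genes tested without sgHS2 2, sgGal4 1, sgHS1-5 2 and sgHS1-5 3. Without sgHS2 1, sgHS2 2 or sgHS2 3 alone, it was 3903 of 14365, 4189 of 14413 and 3899 of 14355 genes tested. Cells with the non-targeting sgRNA also differed from WT, in 6103 genes (42.4%), and both comparisons share the WT libraries. The direct comparison of sgHS2 with sgGal4, in which WT has no part, called 4332 genes (30.1%), and sgHS2 with sgHBG 1284 genes (8.91%). These direct comparisons are the test of whether sgHS2 differs from the other dCas9 populations. Counts of the gene lists that follow are to be read against the shares called over all genes in the same fit. Fits without a library also called fewer or more genes over all, so a list count that shifts there is not in itself a result about the list. With all libraries, the lists of neighbours of the β-globin cluster, globin regulators, heme synthesis, iron handling and p53 targets were near those shares. With both directions counted together, the myeloid, antigen processing, cholesterol, adhesion, and fibroblast and epithelial lists were near the 33.1% as well.

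**Figure D1:**
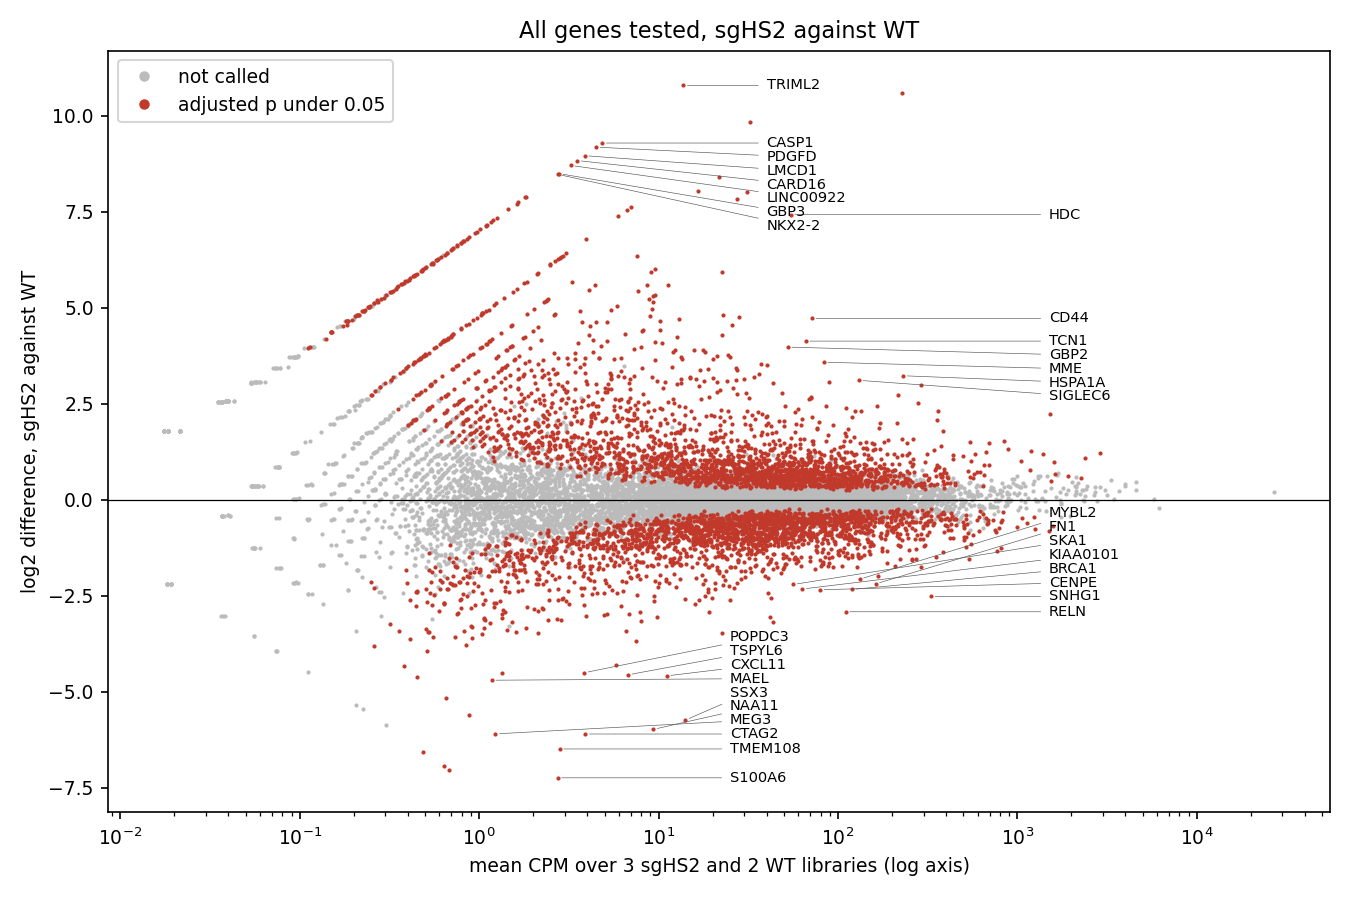
Each point is a gene tested, with its mean CPM over the 3 sgHS2 and 2 WT libraries on a log axis against its fitted log2 difference of sgHS2 against WT; red points were called at an adjusted p under 0.05. TRIML2 stands at the top and S100A6 and TMEM108 at the bottom of the labelled genes.

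The embryonic and fetal globin transcripts of the cluster that HS2 serves were higher in sgHS2. HBE1, the embryonic β-like globin, had 634, 825 and 618 CPM in sgHS2, against 342 and 346 CPM in WT. It was 2.01-fold higher in sgHS2 (log2 difference 1.01 ± 0.32, adjusted p = 0.0262), and all 3 sgHS2 libraries lay above both WT libraries. HBG1 and HBG2 encode the fetal γ-globin chains and are near-identical, so the split of reads between them is uncertain. HBG1 had 123, 176 and 126 CPM in sgHS2, against 58.5 and 61.995 CPM in WT (log2 difference 1.23 ± 0.38, adjusted p = 0.0238). HBG2 had 246, 324 and 243 CPM in sgHS2, against 122 and 129 CPM in WT (log2 difference 1.11 ± 0.38, adjusted p = 0.0373). Both genes were highest in sgHS2 2 and did not overlap between the groups. Of the 5 cluster genes tested, 4 were called higher and none lower (median log2 difference 1.11), and the cluster's summed level was 996 to 1336 CPM in sgHS2 and 350.1 to 847 CPM in sgGal4, against 525 to 541 CPM in WT. HBBP1, a pseudogene, had 2.27, 4.29 and 3.50 CPM in sgHS2, against 1.73 and 2.09 CPM in WT and was not called (log2 difference 0.80 ± 0.29, adjusted p = 0.0542).

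The calls of the 3 main globin genes depended on the libraries and on the deposited values used. Without WT 1 the HBE1 call was lost (log2 1.001, adjusted p = 0.135), as it was without WT 2 (log2 1.02, adjusted p = 0.129) and without sgHS2 2 (log2 0.86, adjusted p = 0.0784). HBG1 lost its call without the same libraries (log2 1.19, adjusted p = 0.138; log2 1.28, adjusted p = 0.115; log2 1.04, adjusted p = 0.0733). HBG2 lost it without any single library of either group, with adjusted p between 0.0564 and 0.179. The count for the cluster was then 1 higher and 0 lower without WT 1 or WT 2 or sgHS2 2. HBBP1, in turn, was called without sgHS2 1 (log2 1.02, adjusted p = 0.0173). From the deposited RPKM values HBG2 was not called (log2 0.90, adjusted p = 0.0953 on the log2(RPKM + 1) scale), whereas HBE1 (log2 0.91, adjusted p = 0.0361) and HBG1 (log2 1.01, adjusted p = 0.0461) were. With no filter on low RPKM values HBE1 and HBG1 lost the call too (log2 0.91, adjusted p = 0.0544; log2 1.01, adjusted p = 0.0686). The direction stayed the same in each of these fits.

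The other dCas9 populations did not share the HBE1 level. HBE1 had 289, 187 and 277 CPM in sgHS1-5, 289, 266 and 265 CPM in sgHBG and 544, 240.2 and 239 CPM in sgGal4, so the lowest sgHS2 library lay above every one of them. The difference was called against sgGal4 (log2 1.02, adjusted p = 0.0143) and against sgHBG (log2 1.34, adjusted p = 0.0107). HBG2 had 90.2, 82.1 and 80.5 CPM in sgHBG and 166, 58.03 and 60.4 CPM in sgGal4, and sgHS2 was higher than either (log2 1.69, adjusted p = 0.00792 against sgHBG; log2 1.52, adjusted p = 0.00433 against sgGal4). In sgHS1-5 it had 279, 174 and 229.7 CPM, which overlapped sgHS2. Library sgGal4 1 was the highest of its group for HBE1, HBG1 and HBG2. HBG1 was also higher than in sgGal4 (log2 0.93, adjusted p = 0.0476) and sgHBG (log2 1.21, adjusted p = 0.038), while its sgHS1-5 levels of 154, 102 and 146 CPM overlapped those of sgHS2.

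**Figure D2:**
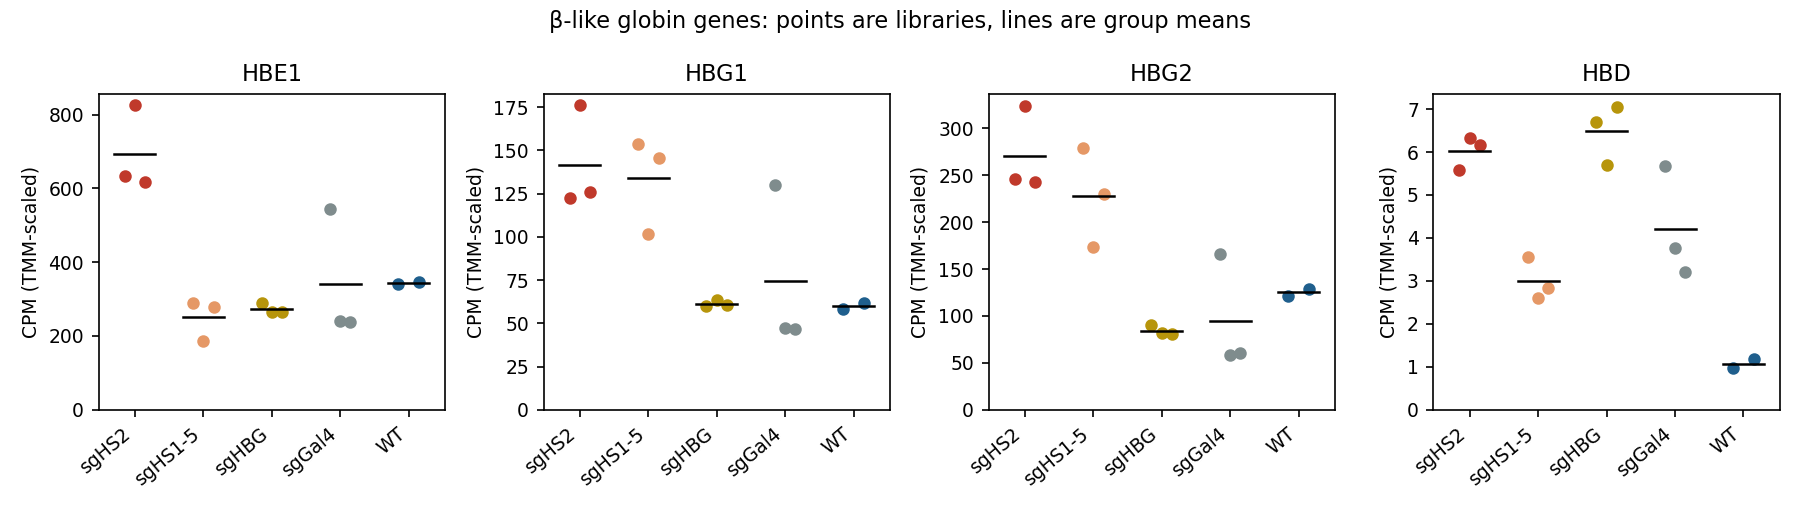
Levels of 4 β-like globin genes in CPM for each library (points) and group mean (lines), with sgHS2 at the left and WT at the right. HBE1 in sgHS2 lies above every other library, whereas HBD in sgHS2 lies above WT and overlaps the sgHBG libraries.

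The adult genes did not move together. HBD, the minor adult globin, had 5.59, 6.32 and 6.17 CPM in sgHS2, against 0.961 and 1.18 CPM in WT, a 5.55-fold higher level in sgHS2 (log2 difference 2.47 ± 0.29, adjusted p = 3.64e-05) with no overlap. The sgHBG libraries had 6.70, 5.71 and 7.06 CPM and the sgGal4 libraries 5.67, 3.77 and 3.21 CPM, each above both WT libraries, and sgHS2 against sgGal4 was not called (log2 0.53, adjusted p = 0.0832). HBB, the main adult gene, was too low to test in the main fit. Fits that kept all 6 cluster genes, HBB included, called 1 of them lower without sgHS2 2, sgGal4 1, sgHS1-5 2 and sgHS1-5 3. They called 1 lower from unfiltered log2(RPKM + 1) values and 0 lower with no filter on low counts. HBB had 1 read over the sgHS2 libraries against 14 over the WT libraries, a WT/sgHS2 ratio of 20.7 (95% counting interval 3.15 to 876). Intervals and bounds of this kind include no error beyond counting, and amplified reads that carry no molecular identifiers are not independent. The HBD promoter is shown because HBD was called under every setting tried. The letters are RefSeq's, for build GRCh38.p14, 250 bases before the transcript start on the minus strand (chr11:5234484-5234733), and capitals mark AGATAA, the letters of a GATA factor motif, read here on the other strand.
HBD: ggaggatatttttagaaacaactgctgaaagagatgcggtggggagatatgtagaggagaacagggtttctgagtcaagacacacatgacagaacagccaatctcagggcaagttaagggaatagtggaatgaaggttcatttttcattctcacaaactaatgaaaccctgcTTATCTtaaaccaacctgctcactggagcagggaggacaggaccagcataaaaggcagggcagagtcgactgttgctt
Of promoters of all tested genes with an entry, 543 of 10523 held AGATAA on either strand (5.16%). The erythroid membrane list held it in 7 of 24 and the heme synthesis list in 2 of 14. A match is a description of letters, and the motifs were chosen after the values were seen.

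Genes around the cluster and the α-like globins did not follow HBE1. Of 19 tested genes neighbouring the β-globin cluster, 3 were called higher and 4 lower (median 0.057). TPP1, a lysosomal peptidase, had 573, 509 and 578 CPM in sgHS2, against 262 and 267 CPM in WT (log2 difference 1.07 ± 0.17, adjusted p = 3.46e-04). RRM1, a subunit of ribonucleotide reductase, had 106, 105 and 100.2 CPM in sgHS2, against 238 and 225 CPM in WT (log2 difference -1.16 ± 0.11, adjusted p = 7.10e-06), and STIM1, the calcium sensor of the endoplasmic reticulum, was lower as well (log2 -0.67, adjusted p = 0.00209). Of 11 tested genes of the α-globin cluster none was called higher and 2 were lower (median -0.40). HBZ, the embryonic α-like globin, had 9.09, 13.4 and 7.73 CPM in sgHS2, against 12.98 and 13.4 CPM in WT and was not called (log2 difference -0.40 ± 0.23, adjusted p = 0.221). HBA2, which shares reads with HBA1, stood near 1 CPM or below in all 5 libraries. Without WT 1 or WT 2 the neighbours gave 1 higher and 3 lower, and the α-globin list gave 0 higher and 1 lower without WT 1 or WT 2 or sgHS2 1 or sgHS2 3. Without sgHS2 2, sgGal4 1, sgHS1-5 2 and sgHS1-5 3 the α-globin list gave 0 higher and 8 lower of 11. That fit called 9540 of all 14339 genes tested.

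Regulators of globin transcription changed in both directions, 7 higher and 4 lower of 38 tested (median -0.11). CHD4, the remodelling ATPase of the NuRD repressor complex, had 838, 779 and 795 CPM in sgHS2, against 438 and 421 CPM in WT (log2 difference 0.90 ± 0.10, adjusted p = 1.90e-05). DNMT1, the maintenance DNA methyltransferase, fell to 146 ± 2.71 CPM in sgHS2, against 336 ± 6.15 CPM in WT (SD, n = 3 and 2; log2 -1.20, adjusted p = 6.46e-05). The histone deacetylase HDAC1 (log2 -0.58, adjusted p = 6.50e-04) and the erythroid factor TAL1 (log2 -0.77, adjusted p = 0.00198) were lower too. Against sgGal4 the order for TAL1 was the other way: 42.5, 50.2 and 53.3 CPM in sgGal4, below sgHS2 (log2 0.79, adjusted p = 0.00127). BCL11A, the repressor of fetal globin, had no read in the 5 libraries. The erythroid factors GATA1 (log2 -0.20, adjusted p = 0.565) and KLF1 (log2 -0.59, adjusted p = 0.0885) were not called. The list gave 1 higher and 4 lower without WT 1, 2 higher and 4 lower without WT 2, 3 higher and 4 lower without sgHS2 1, 4 higher and 5 lower without sgHS2 2.

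The widest single differences lay outside the globin genes. TRIML2, a gene of the TRIM-like family, had 21.8, 24.4 and 22.5 CPM in sgHS2, against 0 and 0 CPM in WT, at least 162-fold higher against 3 counts over the WT libraries, and it was higher than in sgGal4 (log2 2.01, adjusted p = 5.62e-04) and sgHBG (log2 2.39, adjusted p = 7.73e-04). MME, the surface peptidase CD10, had 147, 104 and 143 CPM in sgHS2 and 11.9, 17.8 and 18.8 CPM in sgGal4, against 11.6 and 10.4 CPM in WT (log2 difference 3.58 ± 0.24, adjusted p = 3.82e-07). It was thus near the WT level in sgGal4 and above both in sgHS2 (log2 3.01, adjusted p = 4.81e-07 against sgGal4). SIGLEC6, a sialic acid-binding receptor of mast cells and placenta, had 235, 151 and 222 CPM in sgHS2, against 24.04 and 23.03 CPM in WT (log2 difference 3.10 ± 0.34, adjusted p = 1.97e-05), and sgHS2 2 was the lowest of its group.

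Other transcripts without a WT read were counted in sgGal4 as well. LMCD1, a LIM domain cofactor, and PDGFD, a platelet-derived growth factor, had no WT read and were at least 45.3-fold and 53.8-fold higher in sgHS2, yet lower than in sgGal4 (log2 -2.29, adjusted p = 1.10e-05; log2 -0.76, adjusted p = 0.0185). The same bound was 57.001-fold for CASP1, the inflammatory caspase, 42.1-fold for its neighbour CARD16, whose sequence is close to it, 33.1-fold for the guanylate-binding protein GBP3, 32.4-fold for the homeodomain factor NKX2-2 and 38.1-fold for LINC00922. In sgGal4, CASP1 had 2.84, 1.74 and 2.20 CPM and GBP3 had 1.84, 2.32 and 2.48 CPM, and sgHS2 was higher for both (log2 1.85, adjusted p = 0.0098; log2 1.05, adjusted p = 0.0101). CARD16 had 12.6, 5.13 and 6.14 CPM, NKX2-2 had 3.83, 3.29 and 2.38 CPM and LINC00922 had 9.36, 5.996 and 5.87 CPM in sgGal4, not called different from sgHS2 (log2 -0.41, adjusted p = 0.332; log2 0.54, adjusted p = 0.0899; log2 -0.38, adjusted p = 0.334). Among abundant genes, CD44, the hyaluronan receptor, had 111, 125 and 113 CPM in sgHS2 and 231, 240.1 and 237 CPM in sgGal4, against 4.90 and 3.91 CPM in WT (log2 difference 4.72 ± 0.18, adjusted p = 9.54e-09). TCN1, which encodes the vitamin B12 binder haptocorrin, had 104, 108 and 108 CPM in sgHS2 and 279, 279 and 279 CPM in sgGal4, against 6.54 and 5.64 CPM in WT (log2 difference 4.13 ± 0.20, adjusted p = 4.03e-08). Both were lower in sgHS2 than in sgGal4 (log2 -1.02, adjusted p = 5.35e-05; log2 -1.39, adjusted p = 1.69e-05).

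Several transcripts of WT were nearly absent from sgHS2. S100A6, a calcium-binding protein, had 1 read over the sgHS2 libraries against 145 in WT, a WT/sgHS2 ratio of 215 (95% counting interval 37.9 to 8531). The ratio was 109 (95% counting interval 29.8 to 912) for TMEM108 and 96.2 (95% counting interval 16.7 to 3856) for the imprinted long RNA MEG3. Germ-cell genes were among these: CTAG2 (0.0874, 0.107 and 0.184 CPM in sgHS2, against 9.42 and 9.74 CPM in WT), SSX3 (0.961, 0.536 and 0.368 CPM in sgHS2 and 0.142, 0.0967 and 0.0917 CPM in sgGal4, against 33.1 and 35.6 CPM in WT; SSX copies share reads), MAEL (0.0874, 0.107 and 0.0920 CPM in sgHS2, against 2.50 and 3.10 CPM in WT) and NAA11 (0.262, 0.322 and 0.460 CPM in sgHS2, against 23.4 and 22.3 CPM in WT). TSPYL6 (log2 -4.56, adjusted p = 2.57e-06) and POPDC3 (log2 -4.51, adjusted p = 1.90e-04) fell as well. CXCL11, a chemokine, had 1.22, 0.965 and 1.01 CPM in sgHS2 and 0, 0.0967 and 0 CPM in sgGal4, against 26.1 and 26.2 CPM in WT, so that sgHS2 lay between them (log2 4.49, adjusted p = 5.86e-05 against sgGal4). FN1, fibronectin, likewise had 76.98, 51.6 and 71.4 CPM in sgHS2 and 0.851, 1.64 and 1.47 CPM in sgGal4, against 305 and 307 CPM in WT (log2 difference -2.20 ± 0.53, adjusted p = 0.00632), and the difference from sgGal4 was called in the other direction (log2 5.60, adjusted p = 7.88e-05). RELN, the extracellular protein reelin, had 34.9, 21.7 and 34.5 CPM in sgHS2, against 235 and 226 CPM in WT (log2 difference -2.92 ± 0.42, adjusted p = 1.88e-04), and SNHG1, a host of small nucleolar RNAs, had 103, 127 and 112 CPM in sgHS2, against 655 and 654 CPM in WT (log2 difference -2.52 ± 0.23, adjusted p = 4.77e-06).

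**Figure D3:**
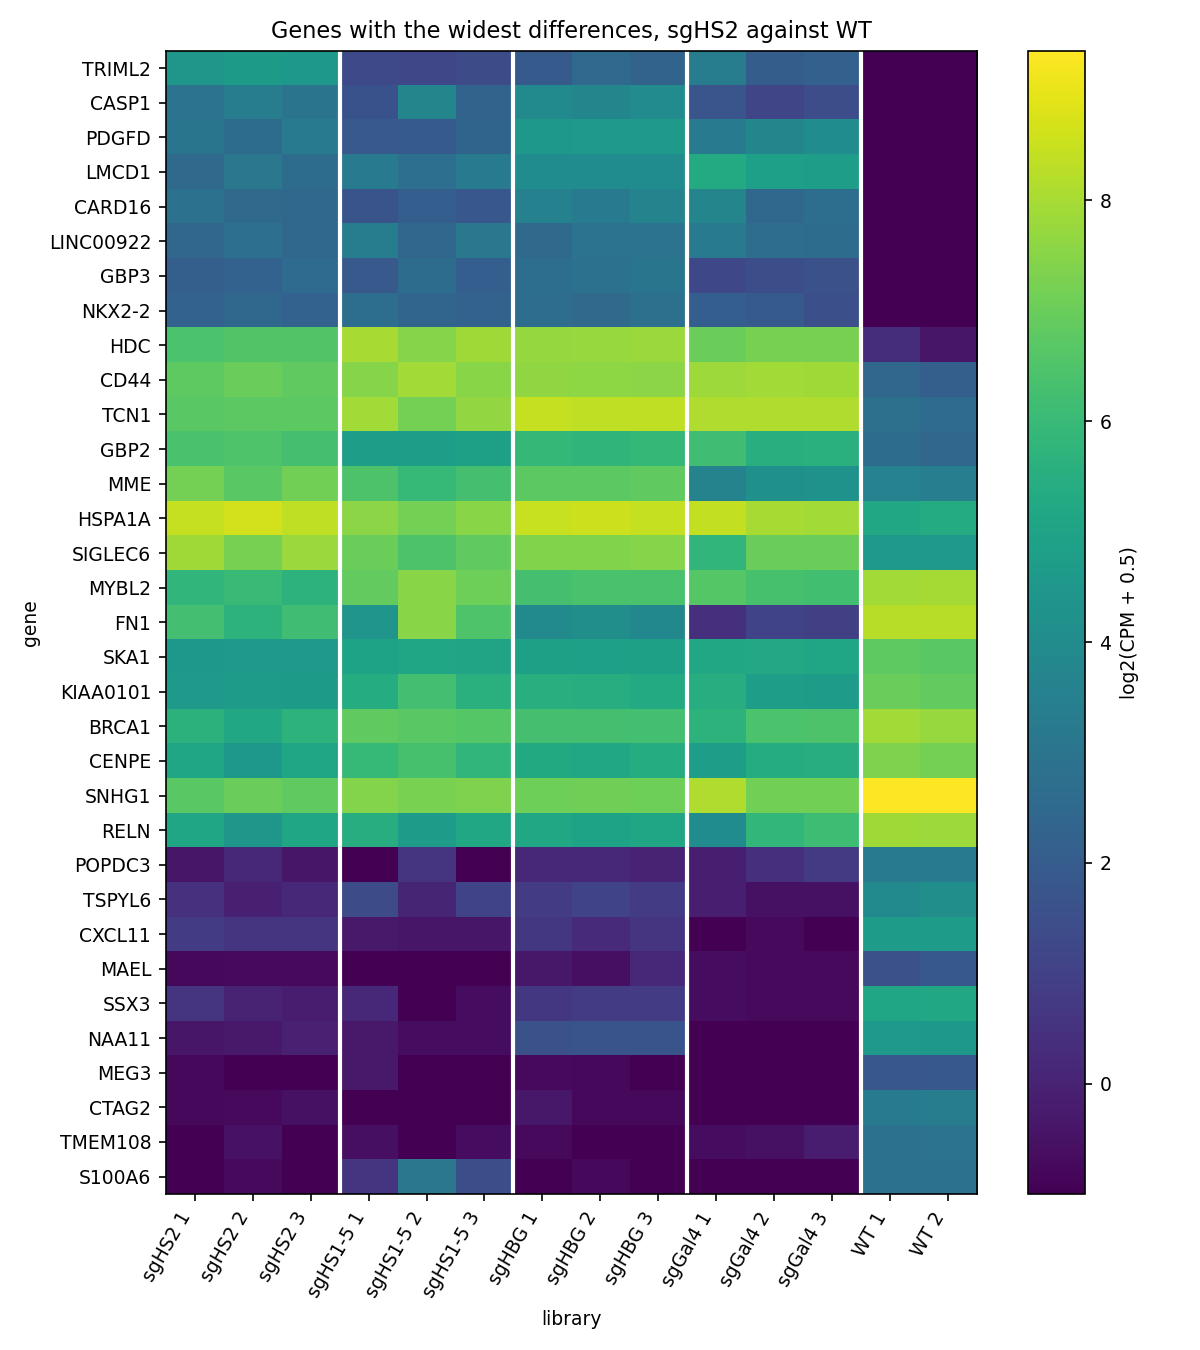
Heat map of log2(CPM + 0.5) in each of the 14 libraries (columns, sgHS2 at the left and WT at the right) for genes with the widest differences (those reported of the 10 highest and 10 lowest and, at 50 CPM or more, the 8 highest and 8 lowest). MME in sgHS2 (147, 104 and 143 CPM) is near the sgHBG libraries (108, 108 and 112 CPM) and above sgGal4 (11.9, 17.8 and 18.8 CPM).

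Among red cell membrane genes, 12 of 30 tested were called lower and 4 higher (median -0.40). GYPE, of a family of near-identical genes whose reads may be split among them, was called lower (log2 -1.60, adjusted p = 1.43e-05). SPTB, erythroid β-spectrin, had 21.2, 14.7 and 19.3 CPM in sgHS2, against 60.1 and 59.3 CPM in WT (log2 difference -1.69 ± 0.18, adjusted p = 1.79e-05), and SLC4A1, the band 3 anion exchanger, had 0.262, 0.858 and 0.644 CPM in sgHS2, against 5.48 and 4.82 CPM in WT (log2 difference -3.13 ± 0.54, adjusted p = 6.89e-04). DMTN, the actin bundler dematin, went against them with 45.3, 48.6 and 44.2 CPM in sgHS2, against 8.17 and 10.3 CPM in WT (log2 difference 2.31 ± 0.15, adjusted p = 3.82e-07). Against sgGal4 the list gave 10 higher and 4 lower.

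Heme synthesis genes split evenly, with 4 higher and 4 lower of 18 (median 0.073). CPOX, coproporphyrinogen oxidase, had 66.6, 65.3 and 63.8 CPM in sgHS2, against 30.9 and 27.6 CPM in WT (log2 difference 1.16 ± 0.11, adjusted p = 6.88e-06), and ALAS1, the housekeeping form of the rate-limiting enzyme, was higher (log2 1.11, adjusted p = 0.00109). FECH, which inserts iron into heme, had 50.9, 46.6 and 49.6 CPM in sgHS2, against 90.1 and 85.6 CPM in WT (log2 difference -0.84 ± 0.11, adjusted p = 7.50e-05), and the mitochondrial transporter ABCB10 was lower (log2 -1.01, adjusted p = 0.00424). Of 16 genes of iron handling and heme breakdown, 3 were higher and 1 lower. SLC40A1, the iron exporter ferroportin, had 109, 103 and 111 CPM in sgHS2, against 28.3 and 32.04 CPM in WT (log2 difference 1.84 ± 0.20, adjusted p = 2.41e-05). Without WT 1 or WT 2 the heme list gave 2 higher and 2 lower, and the iron list gave 1 higher and 1 lower without WT 1 or sgHS2 3, 1 higher and 0 lower without WT 2.

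Several markers of other blood lineages rose. On the mast cell and basophil list, 9 of 11 tested genes rose and none fell (median 2.56), and the summed level was 678 to 770.5 CPM in sgHS2 and 599 to 602 CPM in sgGal4, against 207 to 211 CPM in WT. HDC, which makes histamine, had 84.6, 94.01 and 92.8 CPM in sgHS2 and 129.8, 150.4 and 152 CPM in sgGal4, against 0.769 and 0.273 CPM in WT (log2 difference 7.42 ± 0.28, adjusted p = 9.54e-09). KIT, the stem cell factor receptor, had 117, 91.01 and 115 CPM in sgHS2, against 18.7 and 14.9 CPM in WT (log2 difference 2.68 ± 0.23, adjusted p = 2.59e-06), and MS4A2, the β-chain of the IgE receptor, had 27.5, 25.6 and 26.6 CPM in sgHS2, against 2.21 and 2.91 CPM in WT (log2 difference 3.37 ± 0.24, adjusted p = 6.14e-07). IL1RL1, the interleukin-33 receptor, had 21.3, 15.7 and 19.1 CPM in sgHS2 and 1.28, 3.58 and 3.30 CPM in sgGal4, against 2.12 and 1.27 CPM in WT and exceeded sgGal4 (log2 2.73, adjusted p = 1.95e-05). GATA2, a factor of progenitors and mast cells, was also higher (log2 0.54, adjusted p = 0.0091). The mast cell granule proteases TPSAB1, CPA3 and CMA1 were below 1 CPM in all 5 libraries. TPSAB1 had 0.524, 0.858 and 0.828 CPM in sgHS2, against 0.0961 and 0 CPM in WT, so it was higher in each sgHS2 library, on few reads. CPA3 had 0.0874, 0 and 0.0920 CPM in sgHS2, against 0 and 0 CPM in WT, and CMA1 had no read. With no filter on low counts, 11 of 17 genes of the list were called higher. In bulk RNA, more cells of a type and more RNA per cell cannot be told apart.

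On the megakaryocyte and platelet list, 8 of 20 rose and 1 fell (median 1.57), with a summed level of 509 to 603 CPM in sgHS2 and 423 to 444 CPM in sgGal4, against 206 to 219 CPM in WT. The median depended on the setting: it was 0.81 over the 14 genes kept with only the 2 compared groups and 0.42 on the log2(RPKM + 1) scale. THBS1, thrombospondin, had 35.1, 34.7 and 38.3 CPM in sgHS2 and 10.3, 21.6 and 22.9 CPM in sgGal4, against 0.0961 and 0.0910 CPM in WT, a sgHS2/WT ratio of 386 (95% counting interval 107 to 3191). SPARC (log2 1.93, adjusted p = 5.59e-07), the growth factor TGFB1 (log2 1.56, adjusted p = 4.69e-06) and the tetraspanin CD9 (log2 2.87, adjusted p = 0.00262) were higher, as was ITGA2B, the platelet integrin αIIb, with 61.7, 74.3 and 60.7 CPM in sgHS2, against 38.5 and 38.4 CPM in WT (log2 difference 0.77 ± 0.18, adjusted p = 0.00547). PF4, GP9, GP1BB and TREML1, genes of mature platelets, had no read. The list gave 5 higher and 0 lower without WT 1 or WT 2, 6 higher and 0 lower without sgHS2 2 or sgHS2 3. On the myeloid list 6 of 19 rose and none fell, with summed levels of 788 to 859 CPM in sgHS2 and 1421 to 1498 CPM in sgGal4, against 413 to 420.4 CPM in WT. MS4A3, of granulocyte precursors, had 243, 261 and 233 CPM in sgHS2 and 732, 599 and 603 CPM in sgGal4, against 66.2 and 58.3 CPM in WT (log2 difference 1.98 ± 0.15, adjusted p = 8.72e-07). CTSG and S100A8 had no read, and MPO stood at 0.175, 0.107 and 0.0920 CPM in sgHS2, against 0.192 and 0.182 CPM in WT.

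Lymphoid markers gave 9 higher and 4 lower of 28 (median 0.69), with summed levels of 823 to 855 CPM in sgHS2 and 579 to 687 CPM in sgGal4, against 608 to 638 CPM in WT. Their median was 0.70 with only the 2 compared groups but 0.15 on the log2(RPKM + 1) scale. The 4 with the lowest p are broad leukocyte genes: CD53 (log2 1.46, adjusted p = 2.56e-07), CD48 (log2 5.22, adjusted p = 6.26e-06), CD69 (log2 1.41, adjusted p = 7.57e-06) and CD52 (log2 1.96, adjusted p = 1.44e-05). CD3E, which defines T cells, had 1.40, 1.29 and 0.552 CPM in sgHS2, against 0.577 and 0.728 CPM in WT, and CD2 and CD8A had no read. Fibroblast and epithelial markers gave 4 higher and 1 lower of 13, with summed levels of 2510.3 to 3186 CPM in sgHS2 and 2300 to 3098 CPM in sgGal4, against 2450.2 to 2486 CPM in WT. ACTA2, smooth muscle actin, had 16.1, 17.6 and 12.3 CPM in sgHS2, against 0.385 and 0.455 CPM in WT (log2 difference 5.14 ± 0.35, adjusted p = 4.36e-07), COL1A1 was higher (log2 1.04, adjusted p = 0.0026), and THY1, FAP and LUM had no read. What part a change in cell types had in any other difference was not tested.

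Matrix and adhesion genes changed in both directions. Of 29 collagen and matrix genes, 11 rose and 4 fell (median 0.70). Their median was 0.67 with only the 2 compared groups but 0.095 on the log2(RPKM + 1) scale. COL6A1 had 4.81, 8.15 and 5.25 CPM in sgHS2 and 23.8, 18.6 and 17.4 CPM in sgGal4, against 1.63 and 1.09 CPM in WT (log2 difference 2.14 ± 0.29, adjusted p = 1.13e-04) and COL4A2 was higher (log2 1.48, adjusted p = 3.56e-05), whereas LAMB1, a laminin chain, had 30.1, 29.7 and 31.1 CPM in sgHS2, against 87.4 and 89.9 CPM in WT (log2 difference -1.55 ± 0.14, adjusted p = 4.64e-06). Against sgGal4, 14 of the list were lower and 4 higher, COL6A1 among the lower (log2 -1.72, adjusted p = 6.71e-05). Of 22 adhesion genes 7 rose and 1 fell. SELPLG, the ligand of P-selectin, had 57.2, 64.3 and 55.03 CPM in sgHS2, against 5.58 and 4.55 CPM in WT (log2 difference 3.54 ± 0.16, adjusted p = 2.90e-08), and ICAM1 was higher (log2 0.68, adjusted p = 5.63e-04). ITGA4, integrin α4, had 6.90, 5.47 and 9.66 CPM in sgHS2 and 62.5, 138 and 135 CPM in sgGal4, against 0.769 and 0.364 CPM in WT (log2 difference 3.68 ± 0.58, adjusted p = 3.40e-04). It was far lower in sgHS2 than in sgGal4 (log2 -3.92, adjusted p = 3.80e-06), and it lost its call against WT in the deposited RPKM values with 1 added.

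**Figure D4:**
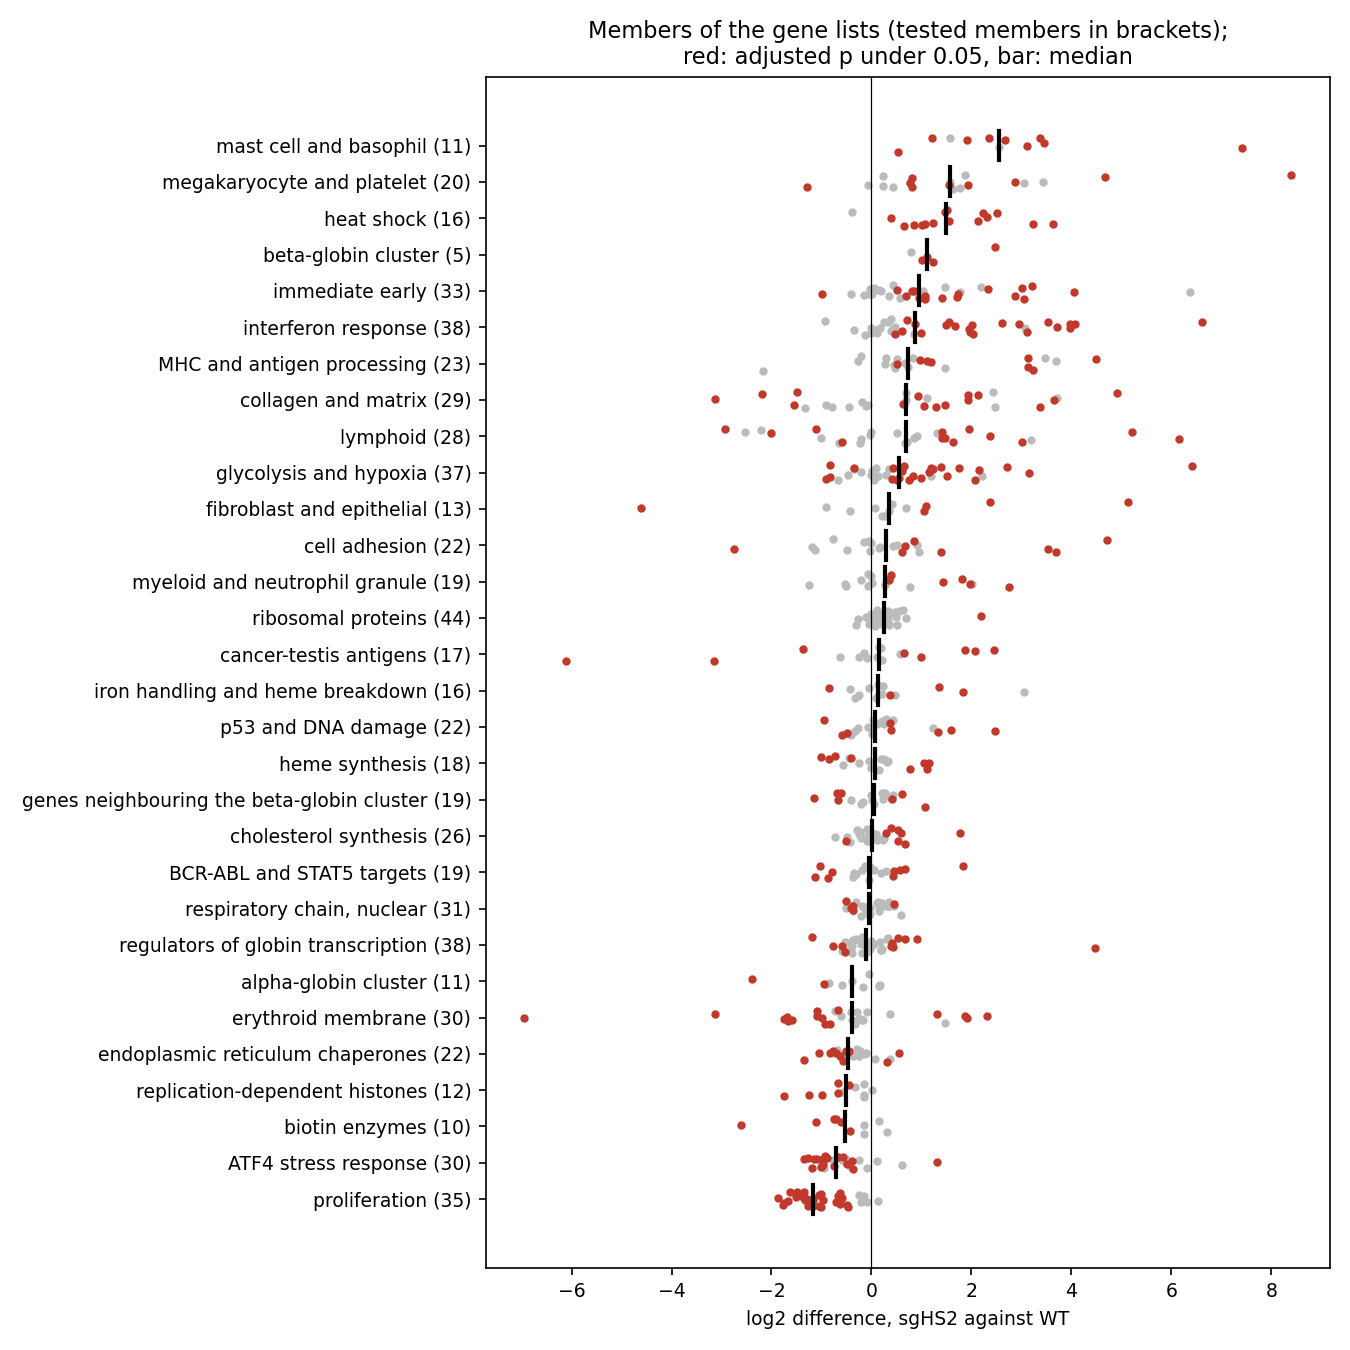
Each point is a tested gene of a list at its log2 difference of sgHS2 against WT, red where called at an adjusted p under 0.05, and the black bar is the list's median. The mast cell and basophil median (2.56) stands highest and that of proliferation (-1.16) lowest.

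Cytosolic chaperones rose nearly as a whole: of 16 tested heat shock genes 15 were called higher and none lower (median 1.49). HSPA8, the constitutive cytosolic Hsp70, had 2115, 2338 and 2164 CPM in sgHS2 and 2345, 2026 and 2026 CPM in sgGal4, against 483 and 461 CPM in WT (log2 difference 2.22 ± 0.12, adjusted p = 5.75e-08). HSPA1A, an inducible Hsp70, had 346, 402 and 329.9 CPM in sgHS2, against 35.96 and 40.9 CPM in WT (log2 difference 3.22 ± 0.18, adjusted p = 1.11e-07), and its near-identical copy HSPA1B had 171, 207 and 173 CPM in sgHS2, against 34.1 and 39.6 CPM in WT. HSPH1, an exchange factor of Hsp70, had 178, 166 and 176 CPM in sgHS2, against 39.996 and 38.9 CPM in WT (log2 difference 2.14 ± 0.11, adjusted p = 5.75e-08). DNAJB1, an Hsp40 (log2 1.47, adjusted p = 2.04e-06), and HSP90AA1, the inducible Hsp90 (log2 1.01, adjusted p = 2.53e-04), were higher as well. The sgGal4 levels were close to these: against sgGal4 1 gene of the list was higher and 1 lower (median 0.038), and HSPA8 was not called (log2 difference 0.049 ± 0.10, adjusted p = 0.742). Against WT, sgGal4 had 15 higher as well. The promoters of HSPA8 (minus strand, chr11:123062137-123062386) and HSPA1A (plus strand, chr6:31815293-31815542) are shown for the pair of Hsp70 genes. Capitals mark GAANNTTC, the letters of a heat shock element, which read the same on both strands.
HSPA8: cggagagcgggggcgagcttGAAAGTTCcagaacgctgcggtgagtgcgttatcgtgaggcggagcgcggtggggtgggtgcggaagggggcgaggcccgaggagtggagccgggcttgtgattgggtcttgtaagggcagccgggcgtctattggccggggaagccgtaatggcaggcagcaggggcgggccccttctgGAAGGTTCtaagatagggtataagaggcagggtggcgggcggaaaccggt
HSPA1A: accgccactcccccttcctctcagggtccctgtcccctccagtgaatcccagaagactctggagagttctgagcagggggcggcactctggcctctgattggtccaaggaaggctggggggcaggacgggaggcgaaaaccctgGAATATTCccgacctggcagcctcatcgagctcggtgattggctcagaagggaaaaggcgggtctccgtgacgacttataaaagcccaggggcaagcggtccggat
These letters were in 5 of 14 heat shock promoters and in 438 of 10523 of all tested (4.16%).

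Many genes of amino acid supply and of the endoplasmic reticulum fell. Of 30 tested targets of the ATF4 stress response, 17 were called lower and 1 higher (median -0.71). CBS, which makes cystathionine from homocysteine, had 227, 265 and 216 CPM in sgHS2 and 257, 219 and 228 CPM in sgGal4, against 591 and 616 CPM in WT (log2 difference -1.36 ± 0.13, adjusted p = 5.16e-06). CTH, the next enzyme of that path, had 68.6, 60.1 and 68.1 CPM in sgHS2, against 148 and 129.9 CPM in WT (log2 difference -1.08 ± 0.12, adjusted p = 1.86e-05). ASNS, asparagine synthetase, had 498, 541 and 515 CPM in sgHS2, against 1268 and 1234 CPM in WT (log2 difference -1.27 ± 0.16, adjusted p = 8.19e-05), and SHMT2, of mitochondrial serine use, was lower (log2 -0.98, adjusted p = 1.72e-04). ATF4 itself had 659.5, 819 and 663 CPM in sgHS2, against 666 and 653 CPM in WT and was not called (log2 0.11, adjusted p = 0.801). CBS was not called different from sgGal4 (log2 0.008, adjusted p = 0.972), whereas ASNS was lower in sgHS2 than in sgGal4 (log2 -0.85, adjusted p = 0.0011). ASNS was the only list member called lower there, and 6 were called higher (median 0.10). In sgGal4 against WT the list gave 1 higher and 17 lower. Without WT 1 the list gave 0 higher and 13 lower.

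Of 22 chaperones of the endoplasmic reticulum, 10 were called lower and 2 higher (median -0.46). HYOU1 had 496, 472 and 462 CPM in sgHS2 and 623, 824 and 816 CPM in sgGal4, against 1212 and 1209 CPM in WT (log2 difference -1.34 ± 0.13, adjusted p = 5.68e-06). HSPA5, the chaperone BiP, had 1097, 1249 and 1099 CPM in sgHS2, against 2069 and 2012 CPM in WT (log2 difference -0.83 ± 0.16, adjusted p = 0.00125), and the lectin chaperones CALR (log2 -0.58, adjusted p = 0.00226) and CANX (log2 -0.76, adjusted p = 0.00334) were lower. Against sgGal4 the list also gave 10 lower and 2 higher. It gave 0 higher and 5 lower without WT 1, 0 higher and 6 lower without WT 2, 1 higher and 9 lower without sgHS2 1 or sgHS2 2.

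Among glycolysis and hypoxia genes, 20 of 37 were called higher and 4 lower (median 0.55). P4HA1, a collagen prolyl hydroxylase, had 331, 322 and 326 CPM in sgHS2 and 241, 229 and 218 CPM in sgGal4, against 50.2 and 49.3 CPM in WT (log2 difference 2.71 ± 0.12, adjusted p = 2.18e-08). The glucose transporter SLC2A3 had 534, 487 and 511 CPM in sgHS2, against 127 and 114 CPM in WT (log2 difference 2.08 ± 0.14, adjusted p = 5.20e-07). PGK1, phosphoglycerate kinase, had 553, 580.2 and 555 CPM in sgHS2 and 296, 291 and 275 CPM in sgGal4, against 247 and 258 CPM in WT (log2 difference 1.16 ± 0.095, adjusted p = 2.01e-06), and LDHA, lactate dehydrogenase A, had 837, 918 and 853 CPM in sgHS2 and 389.8, 368 and 368 CPM in sgGal4, against 378 and 358 CPM in WT (log2 difference 1.24 ± 0.10, adjusted p = 2.04e-06). For PGK1 and LDHA the sgGal4 libraries lay near WT, and sgHS2 exceeded sgGal4 (log2 0.97, adjusted p = 4.21e-06; log2 1.21, adjusted p = 1.40e-06). Over the list, sgHS2 was higher than sgGal4 in 21 genes and lower in 1, and higher than sgHBG in 17 and lower in none. The summed level of the list was 13786 to 16459 CPM in sgHS2 and 9009.9 to 11674 CPM in sgGal4, against 10352 to 10457 CPM in WT, and in sgHS1-5 it was 16410 to 16466 CPM, at the upper end of the sgHS2 range. VEGFA, the vascular growth factor, did not follow: it had 442, 428 and 466 CPM in sgHS2 and 139, 153 and 156 CPM in sgGal4, against 510.05 and 521 CPM in WT, not called against WT (log2 -0.21, adjusted p = 0.178) but above sgGal4 (log2 1.58, adjusted p = 5.87e-07). Without WT 1 the list gave 12 higher and 3 lower.

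Of 38 tested genes on the interferon response list, 21 were called higher and none lower (median 0.87). The list did not hold the chemokine CXCL11, which was far lower in sgHS2 than in WT. IFIH1, the RNA sensor MDA5, had 40.8, 37.6 and 41.04 CPM in sgHS2 and 4.39, 5.996 and 6.51 CPM in sgGal4, against 2.98 and 3.10 CPM in WT (log2 difference 3.71 ± 0.20, adjusted p = 6.12e-08). DHX58, the related sensor LGP2, had 17.999, 20.6 and 16.8 CPM in sgHS2, against 4.23 and 5.10 CPM in WT (log2 difference 1.98 ± 0.20, adjusted p = 1.13e-05). MX2, an antiviral GTPase, had 13.6, 12.97 and 11.5 CPM in sgHS2, against 0.577 and 1.001 CPM in WT (log2 difference 3.98 ± 0.44, adjusted p = 2.31e-05), IFIT1 had 3.32, 3.32 and 3.50 CPM in sgHS2 and 0.284, 0.0967 and 0.275 CPM in sgGal4, against 0.192 and 0.364 CPM in WT (log2 3.53, adjusted p = 7.17e-05), and GBP2, a guanylate-binding protein, had 82.8, 89.9 and 78.9 CPM in sgHS2, against 5.77 and 4.92 CPM in WT (log2 difference 3.97 ± 0.22, adjusted p = 8.40e-08). Against sgGal4 27 of the list were higher and 2 lower, IFIH1 among the higher (log2 2.80, adjusted p = 1.78e-07), and against sgHBG 4 were higher and none lower (log2 0.87, adjusted p = 0.00201 for IFIH1). ISG15 (log2 0.86, adjusted p = 0.0571) was not called against WT, and IFI44L and HERC5 had no read. Without sgHS2 2 the list gave 20 higher and 1 lower. The IFIH1 promoter (minus strand, chr2:162318685-162318934) is shown with capitals at the letters of an interferon-stimulated response element (GAAA, 2 bases of any kind, GAAA) on either strand; the leftmost run holds 2 overlapping matches.
IFIH1: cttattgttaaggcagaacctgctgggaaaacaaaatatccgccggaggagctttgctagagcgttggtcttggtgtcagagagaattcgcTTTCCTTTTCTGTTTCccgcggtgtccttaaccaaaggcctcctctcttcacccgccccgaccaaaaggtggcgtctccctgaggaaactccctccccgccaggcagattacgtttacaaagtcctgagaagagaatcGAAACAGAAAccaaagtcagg
The letters were in 15 of 28 promoters of the list, in none of 14 heat shock or 30 proliferation promoters, and in 251 of 10523 of all tested (2.38%).

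Antigen processing genes went the same way, with 8 of 23 higher and none lower (median 0.73). PSMB9, a subunit of the immunoproteasome, had 22.5, 26.6 and 25.8 CPM in sgHS2, against 2.12 and 3.55 CPM in WT (log2 difference 3.13 ± 0.32, adjusted p = 1.16e-05). TAP1, a peptide transporter, had 31.5, 35.1 and 33.4 CPM in sgHS2 and 18.4, 14.5 and 11.7 CPM in sgGal4, against 15.9 and 14.8 CPM in WT and was higher than in sgGal4 too (log2 1.12, adjusted p = 7.90e-04 against WT; log2 1.17, adjusted p = 3.04e-04 against sgGal4). HLA-E, a class I molecule, was higher (log2 0.98, adjusted p = 1.43e-04). Without WT 1 the list gave 4 higher and 0 lower.

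Immediate early genes, which growth factors and stress induce, gave 16 higher and 1 lower of 33 (median 0.94). EGR1, a zinc finger factor, had 140.2, 140.1 and 135 CPM in sgHS2 and 42.5, 62.2 and 62.9 CPM in sgGal4, against 16.7 and 16.7 CPM in WT (log2 difference 3.05 ± 0.20, adjusted p = 3.16e-07), and sgHS2 exceeded sgGal4 (log2 1.30, adjusted p = 5.81e-05). FOS had 6.64, 9.22 and 8.19 CPM in sgHS2, against 1.06 and 1.09 CPM in WT (log2 difference 2.88 ± 0.51, adjusted p = 8.00e-04), FOSL1 was higher (log2 1.41, adjusted p = 7.34e-05), and the phosphatase DUSP5 had 15.99, 18.7 and 17.02 CPM in sgHS2, against 5.48 and 4.92 CPM in WT (log2 difference 1.73 ± 0.23, adjusted p = 1.17e-04). SPRY1, an inhibitor of growth factor signals, had 2.97, 3.22 and 2.02 CPM in sgHS2 and 7.94, 12.9 and 12.7 CPM in sgGal4, against 0.288 and 0.273 CPM in WT. It was thus above WT (log2 3.22, adjusted p = 7.40e-05) and below sgGal4 (log2 -2.04, adjusted p = 4.33e-05). Over the list, sgHS2 was higher than sgGal4 in 7 genes and lower in 7 (median -0.014), and sgGal4 against WT gave 17 higher and 2 lower.

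**Figure D5:**
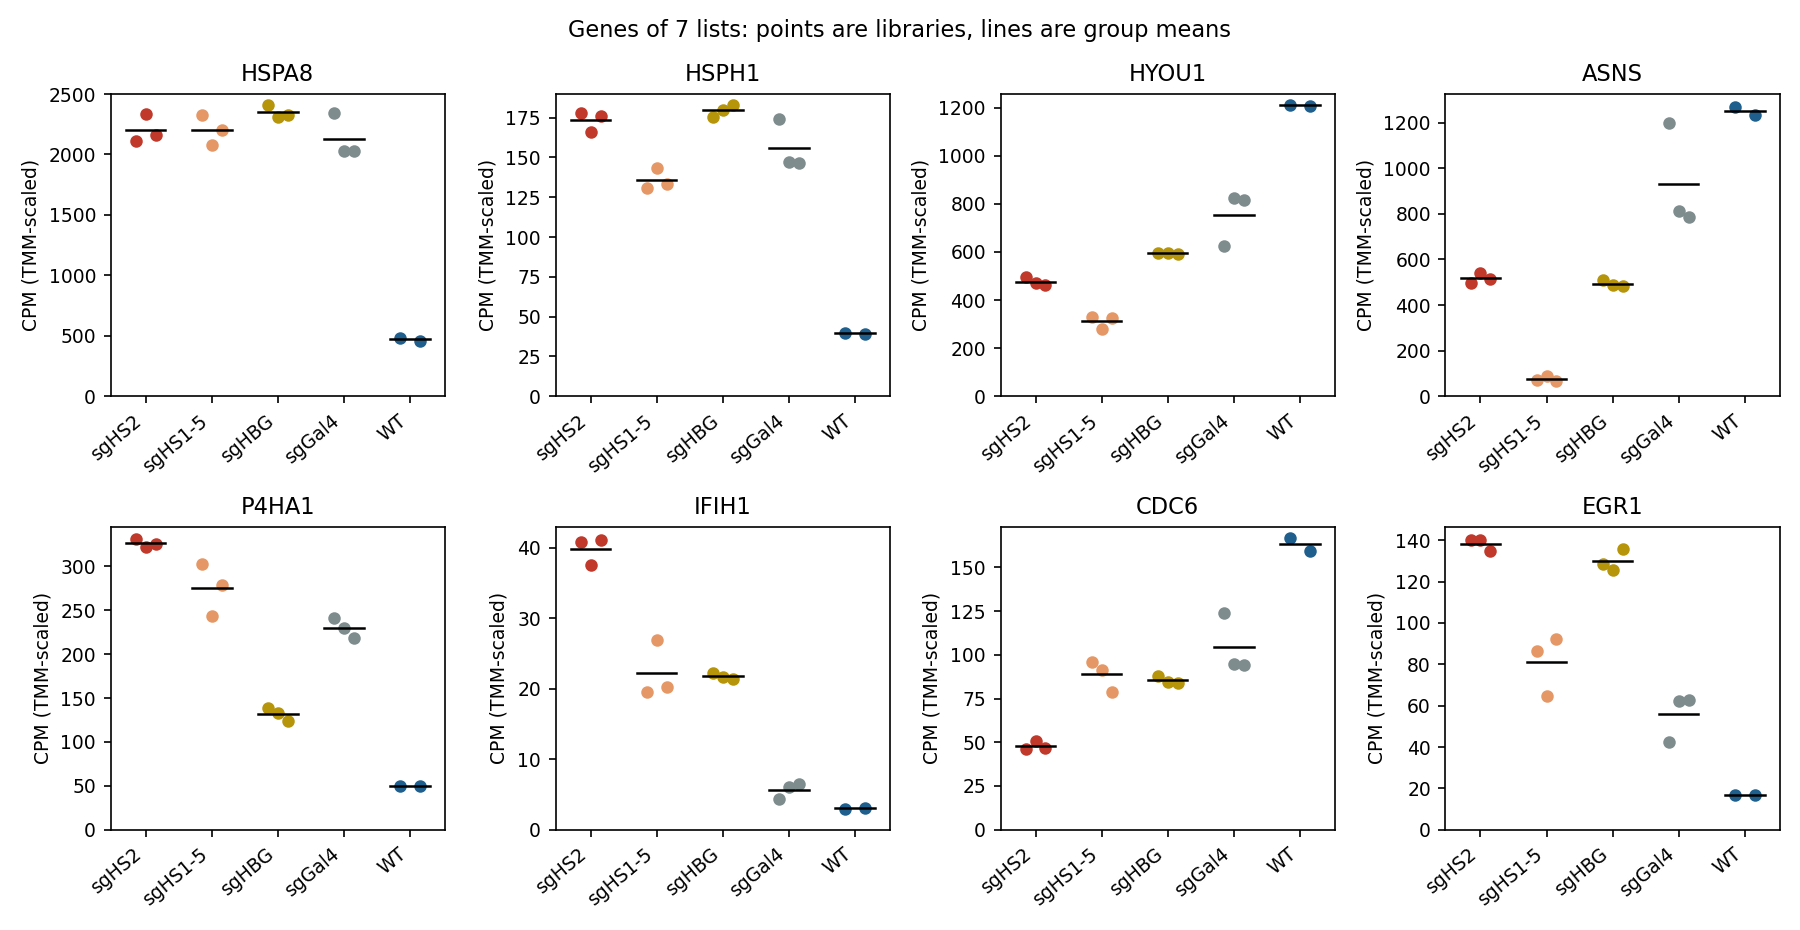
Levels in CPM per library for 8 genes of 7 lists, with group means as lines and sgHS2 at the left. HSPA8 is high in every dCas9 population and low in WT, whereas IFIH1 (40.8, 37.6 and 41.04 CPM in sgHS2) is higher in sgHS2 than in all other libraries.

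Cell cycle transcripts were lower: 30 of 35 proliferation genes were called lower and none higher (median -1.16), with a summed level of 2983 to 3116 CPM in sgHS2 and 4338 to 4780.5 CPM in sgGal4, against 6256 to 6302 CPM in WT. CDC6, which loads the replicative helicase, had 46.4, 50.8 and 46.6 CPM in sgHS2 and 124, 94.7 and 94.4 CPM in sgGal4, against 167 and 159 CPM in WT (log2 difference -1.77 ± 0.13, adjusted p = 8.47e-07). CCNA2, cyclin A2, had 83.3, 74.2 and 74.4 CPM in sgHS2, against 228 and 209 CPM in WT (log2 difference -1.50 ± 0.14, adjusted p = 4.35e-06). The helicase subunits MCM3 and MCM4 were lower (log2 -1.18, adjusted p = 4.40e-06; log2 -1.33, adjusted p = 5.09e-06), and MCM4 had 126, 107 and 119 CPM in sgHS2, against 301 and 289 CPM in WT. The abundant genes with the lowest differences held further mitotic and replication genes: the kinetochore motor CENPE (33.8, 22.7 and 33.7 CPM in sgHS2, against 162 and 145 CPM in WT; log2 -2.35, adjusted p = 5.02e-06), the kinetochore protein SKA1 (log2 -2.21, adjusted p = 1.17e-08), the PCNA-binding factor KIAA0101 (log2 -2.33, adjusted p = 1.18e-05), the repair gene BRCA1 (log2 -2.34, adjusted p = 2.94e-06) and the cell cycle factor MYBL2 (log2 -2.07, adjusted p = 2.04e-06). Library sgHS2 2 was the lowest of its group for CENPE and BRCA1 and the highest for MYBL2.

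The fall was wider in sgHS2 than in sgGal4. Against sgGal4, 24 proliferation genes were lower and none higher (median -0.54), with CDC6 at log2 -1.12, adjusted p = 2.35e-05; CCNA2 was not called (log2 -0.33, adjusted p = 0.058). Against sgHBG 9 were lower and none higher. Replication-dependent histone genes gave 6 lower and none higher of 12 (median -0.51), with HIST1H2BJ at 15.3, 12.9 and 12.9 CPM in sgHS2, against 47.4 and 44.97 CPM in WT (log2 difference -1.75 ± 0.15, adjusted p = 2.88e-06). The CDC6 promoter (plus strand, chr17:40287629-40287878) is shown with capitals at CCAAT or its reverse ATTGG, the letters of the CCAAT box found in many cell cycle promoters.
CDC6: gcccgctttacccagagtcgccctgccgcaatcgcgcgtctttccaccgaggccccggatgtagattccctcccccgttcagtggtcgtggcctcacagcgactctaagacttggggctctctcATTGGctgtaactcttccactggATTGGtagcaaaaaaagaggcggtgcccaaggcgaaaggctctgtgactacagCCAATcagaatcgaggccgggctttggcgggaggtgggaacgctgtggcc
CCAAT was in 24 of 30 proliferation, 14 of 24 ATF4, 9 of 14 heme synthesis and 5 of 14 heat shock promoters. Of all tested promoters 3691 of 10523 held it (35.1%).

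Growth inhibitors and signal genes gave mixed counts. K562 is known as a p53-null line. Of 22 tested genes known as p53 targets in other cells, 5 were higher and 3 lower. CDKN1A, the cell cycle inhibitor p21, had 65.9, 75.9 and 64.3 CPM in sgHS2, against 28.7 and 25.8 CPM in WT (log2 difference 1.34 ± 0.12, adjusted p = 4.10e-06), BTG2 had 86.4, 91.5 and 85.3 CPM in sgHS2, against 29.7 and 28.7 CPM in WT (log2 difference 1.59 ± 0.11, adjusted p = 5.59e-07) and DDB2, of nucleotide excision repair, was lower (log2 -0.96, adjusted p = 8.50e-04). Of 19 targets of BCR-ABL and STAT5, 5 were higher and 4 lower. CCND1, cyclin D1, had 21.1, 20.6 and 21.4 CPM in sgHS2, against 6.15 and 5.64 CPM in WT (log2 difference 1.83 ± 0.16, adjusted p = 2.99e-06), while STAT5B was lower (log2 -0.80, adjusted p = 3.26e-04) and ABL1 was not called (log2 0.051, adjusted p = 0.877). Without WT 1 the p53 list gave 3 higher and 2 lower, and the BCR-ABL list gave 3 higher and 4 lower without WT 1, 2 higher and 4 lower without WT 2.

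Carboxylases carry biotin, which BirA attaches to the tag on dCas9. Of 10 tested genes on the biotin list 6 were lower and none higher (median -0.53). PC, pyruvate carboxylase, had 5.16, 4.93 and 6.35 CPM in sgHS2 and 6.24, 6.67 and 6.05 CPM in sgGal4, against 33.4 and 34.1 CPM in WT (log2 difference -2.62 ± 0.14, adjusted p = 5.75e-08), MCCC1 had 20.97, 22.1 and 21.99 CPM in sgHS2, against 47.5 and 45.97 CPM in WT (log2 difference -1.11 ± 0.11, adjusted p = 7.23e-06), and PCCB was lower (log2 -0.71, adjusted p = 6.86e-04). PC was not called different from sgGal4 (log2 -0.20, adjusted p = 0.324), whereas PCCB was lower than there (log2 -0.77, adjusted p = 2.69e-04). Without WT 1 the list gave 0 higher and 3 lower.

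For cholesterol synthesis the median difference of sgHS2 was small against WT and wide against sgGal4. Of 26 genes tested, 7 were higher and 1 lower than in WT (median 0.011), but 20 were lower and none higher than in sgGal4 (median -0.93). The summed level was 4381 to 4584 CPM in sgHS2 and 8090 to 8851 CPM in sgGal4, against 3934 to 3981 CPM in WT. SQLE, squalene epoxidase, had 549, 537 and 533 CPM in sgHS2 and 1211, 985 and 969.5 CPM in sgGal4, against 160.4 and 155 CPM in WT (log2 difference 1.77 ± 0.14, adjusted p = 1.49e-06; log2 -0.97, adjusted p = 7.61e-05 against sgGal4). INSIG1, the sterol sensor's partner, had 364, 363 and 354 CPM in sgHS2 and 608, 645 and 630.02 CPM in sgGal4, against 276 and 277 CPM in WT (log2 0.38, adjusted p = 0.00354). The list gave 3 higher and 0 lower without WT 1 or WT 2, 6 higher and 0 lower without sgHS2 1 or sgHS2 3, 7 higher and 0 lower without sgHS2 2.

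Ribosomal protein genes showed no broad call, with 1 higher and none lower of 44 (median 0.25), and summed levels of 84054 to 110020 CPM in sgHS2 and 104090 to 218240 CPM in sgGal4, against 79076 to 80511 CPM in WT. RPS10, the called gene, has copies elsewhere in the genome. It had 5.07, 5.15 and 4.60 CPM in sgHS2, against 0.865 and 1.27 CPM in WT (log2 difference 2.19 ± 0.33, adjusted p = 2.69e-04), but it was not called from the deposited RPKM values (log2 0.50, adjusted p = 0.329 on the log2(RPKM + 1) scale), where no gene of the list was. RPL3 had 4011, 5101 and 3964 CPM in sgHS2, against 3361 and 3446 CPM in WT (log2 difference 0.36 ± 0.19, adjusted p = 0.162), with sgHS2 2 the highest. Against sgGal4, a group that includes the outlying library sgGal4 1, 22 were lower. The counts changed with the libraries: without sgHS2 2, sgGal4 1, sgHS1-5 2 and sgHS1-5 3, 23 were higher and 12 lower than in WT. In that fit 9540 of all 14339 genes tested were called, so the list counts from it are to be read against this. Nuclear genes of the respiratory chain gave 1 higher and 4 lower of 31, 1 higher and 0 lower without WT 1, 0 higher and 2 lower without WT 2, 1 higher and 1 lower without sgHS2 1, 1 higher and 2 lower without sgHS2 3, and 9 higher and 18 lower without the same 4 libraries. Without these libraries the regulators of globin transcription gave 12 higher and 17 lower of 37, the cholesterol list 9 higher and 8 lower of 26, the iron list 9 higher and 6 lower of 15 and the endoplasmic reticulum list 4 higher and 18 lower of 22. Cancer-testis genes gave 5 higher and 3 lower of 17, with MAGEC1 at 106, 111 and 107 CPM in sgHS2, against 31.5 and 27.7 CPM in WT (log2 difference 1.86 ± 0.18, adjusted p = 8.94e-06) and MAGEA4 at 16.2, 17.04 and 19.3 CPM in sgHS2 and 2.84, 1.26 and 1.19 CPM in sgGal4, against 4.23 and 4.10 CPM in WT (log2 difference 2.07 ± 0.27, adjusted p = 8.47e-05), and against sgGal4 13 were higher and none lower. Without WT 1 or WT 2 it was 3 higher and 3 lower than in WT. Copies within the MAGE, PAGE and SSX families can share reads, and the library kit does not mark strand, so reads of overlapping antisense genes cannot be told apart.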

How the data were processed

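RNA-seq was measured in 14 libraries of K562 cells. Libraries were made with the TruSeq RNA v2 kit, per the labels' protocols, and the submitters' processing notes name TopHat, Cufflinks and DESeq with build hg19, with no version; the counting tool and annotation are not given in the sources used here. The authors deposited raw read counts per gene for 24729 symbols and RPKM values, scaled by them to transcript length and depth, for 25268. Counts were tested in edgeR 4.0.16 (R 4.3.3) with filterByExpr (minimum count 10, total 15; 14406 genes kept), TMM factors and 1 mean per group over all 14 libraries (9 residual degrees of freedom), with the quasi-likelihood F test and Benjamini-Hochberg adjustment over all genes. The SE is the log2 difference over the square root of F. Bounds against 0 counts use 3 counts over the group, and ratios with 1 to 3 counts have exact binomial 95% intervals. Depth is the total count per library, 5694448 to 11335831 over the series.

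The members and the 30 gene lists were chosen with earlier results of these data known. Genes were named by a rule: among called genes with a mean of at least 1 CPM and no overlap between the groups, the 10 highest and 10 lowest log2 differences; at 50 CPM or more, the 8 highest and 8 lowest; the β-globin cluster genes; and, by p, up to 4 genes of each other list. Further list members named for their known role, such as GATA1 or VEGFA, were chosen after their values were seen. Some genes that met the rule are not reported here. Alternatives were RLE factors, library sizes without globin genes, other filters, DESeq2 1.42.0, limma 3.58.1 (voom, and RPKM plus 1 or 0.1), fits of 2 groups, a replicate block, a 2-fold minimum and leaving out libraries. The scripts were tested on simulated data. Promoter sequences are RefSeq's (GRCh38.p14), matched by symbol for 10523 tested genes.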

Additional observations from a re-analysis of the deposited data

Results flagged for a closer look

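The deposited RPKM table holds 539 genes that the count table does not, and no comparison of counts above used them. The fits of RPKM values quoted above included such genes in their adjustment, but named none of them. Of the 434 with a value, 77 were called in sgHS2 against WT by limma on log2(RPKM + 1). In the same fit 5116 of all 21379 genes with a value were called. The 3 that follow were picked as the highest log2 differences among called genes whose sgHS2 libraries all lay above the WT libraries. LOC645638 averaged 7.39 RPKM in sgHS2, against 0.115 and 0.651 RPKM in WT (log2 2.62 on that scale, adjusted p = 0.000355), and it had 7.33, 2.44 and 2.296 RPKM in sgGal4. LOC100505592 averaged 3.27 RPKM in sgHS2 and had 11.6, 5.16 and 4.2 RPKM in sgGal4, against 0.479 and 0 RPKM in WT. IFLTD1 averaged 1.86 RPKM in sgHS2, against 0.104 and 0.061 RPKM in WT.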

How the results depend on the processing

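Of 2840 values of named genes under other settings, 2704 kept their direction and their side of the threshold, 120 kept the direction but lost the call, 16 gained one and none changed sign; 88 of 150 genes kept their call in every setting. For sgHS2 against WT, 4480 to 5129 genes were called with other scalings, filters, count tools or RPKM values, and 6423 with only the libraries of both groups. The other comparisons with only their own 2 groups gave 2306 (sgHS2 against sgGal4), 3510 (sgHS2 against sgHBG) and 3502 (sgGal4 against WT). With a 2-fold minimum the counts were 893 (sgHS2 against WT), 527 (sgHS2 against sgGal4), 91 (sgHS2 against sgHBG) and 1317 (sgGal4 against WT), with 98 list genes for sgHS2 against WT. Leaving out 1 library gave 2794 to 4189, 3029 to 5474, 548 to 722 and 3906 to 7348 calls, in the same order, and 213 to 284 list genes. Without sgGal4 1, sgHS2 2, sgHS1-5 2 and sgHS1-5 3 they were 9540, 8424, 6273 and 10070, with 536 list genes. With only sgHS2 and WT and without sgHS2 2, chosen after seeing the data, they were 9010, with 512 list genes; the cause of these shifts was not tested. Same-numbered sgHS2 and WT libraries had deviations correlated at 0.0746 and 0.124, and 2 pairs do not establish pairing; with the replicate number as a block 4298 genes were called (290 list genes). Depth limits genes near 1 CPM, which rest on few counts in a library.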
